A study of Rattus norvegicus with 8 samples.

Results

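The caspase genes described here were Casp1, Casp4, Casp12, Casp8, Casp2 and Casp6. They were taken as a set of 6 names, and each was matched to the transcript cluster for which it was the only symbol in the platform's table of probes and genes. Casp9 also had such a cluster, is not among the 6, and is described apart from them. A transcript cluster is the set of probes that the array assigns to 1 gene. Each of the 6 genes had 1 cluster, of 8793 clusters measured. Of these clusters, 7603 had a single symbol, and they stood for 7589 genes.

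Caspases are proteases that cut proteins after aspartate residues and are made as inactive precursors. Caspase-1 and its relatives are switched on by inflammasomes, mature interleukins of the IL-1 family and can kill the cell by pyroptosis, whereas caspase-8 and caspase-2 start apoptosis and caspase-6 carries it out. In EAE, an autoimmune inflammation of the central nervous system, T cells and macrophages enter the spinal cord, and lymphocytes that have entered it are known to die there by apoptosis.

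Rats with MBP-EAE (n = 4, rats 217, 218, 219 and 241) were compared with healthy controls (n = 4, rats 193, 194, 195 and 196), with 1 exon array for the RNA of each rat. All 8 rats were virgin Lewis females, 16 weeks old by the labels and somewhat younger by the study's methods. MBP-EAE was induced by injecting 50 µg of myelin basic protein (MBP) under the skin at the tail base, in incomplete Freund's adjuvant with M. butyricum, and controls were untreated littermates of the same age, so that MBP and adjuvant cannot be told apart. The labels call the MBP guinea-pig brain MBP and the methods recombinant, and whole cords were taken on day 13, around the height of disease, when some rats may have begun to recover.

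Each value below is the deposited log2 intensity of a cluster, so that a difference of 1 is a doubling. Levels of different clusters depend on their probes and were not set against each other. Medians of the arrays lay between 5.00 and 5.08 in MBP-EAE and between 4.94 and 5.08 in healthy controls. The array of healthy rat 195 had a narrower spread than the others, with an interquartile range of 2.23, against 2.61 to 2.93 for the other 7 arrays. With a threshold of 0.05 on the p adjusted over all clusters (limma, Benjamini-Hochberg), 994 clusters were higher in MBP-EAE and 1280 were lower, and the median log2 fold change was -0.10. Those called higher were 43.7% of all calls, 58.1% after cyclic loess and 29.5% after scaling each array by its median absolute deviation.

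All 6 caspase genes were up-regulated in MBP-EAE. Casp9, outside the set, was not called, and its change was not compared with theirs. The share of all clusters called higher was 11.3%. The members' changes ran between 1.20-fold (Casp6) and 7.32-fold (Casp4), 4 of them were at least 2-fold (4.81% of all clusters were called and at least 2-fold higher) and 3 were at least 4-fold (1.69% of all clusters). In each of the 6 genes the 4 MBP-EAE rats lay above the 4 healthy controls, which was so for 1053, or 12%, of all clusters. The exact two-sided permutation p for each gene was 0.0286, the smallest that 4 rats against 4 allow. The members' median log2 fold change was 1.56. Because the 6 genes were chosen with earlier results of these data known, these counts, p and median are no test of the family. Because whole cord was measured, more cells that express a gene and more of its RNA in each cell cannot be told apart, and transcripts say nothing of whether the protease was cut into its active form.

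**Figure D1:**
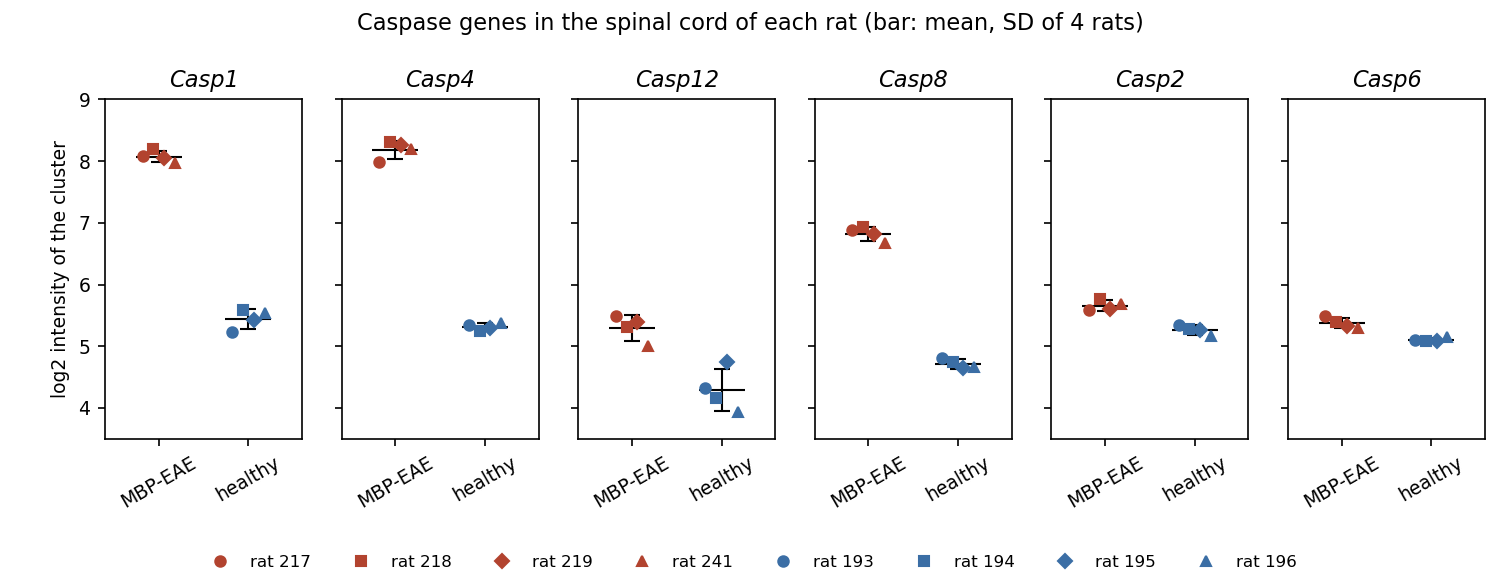
Log2 intensity (vertical axis) of the 6 caspase clusters in each rat, MBP-EAE on the left of each panel and healthy control on the right. Each symbol is 1 rat, the horizontal line is the mean and the bar the SD of 4 rats. The groups are furthest apart for Casp4 and Casp1, and nearest for Casp6, where the lowest MBP-EAE rat was 0.15 above the highest healthy control.

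The inflammatory caspase genes Casp1, Casp4 and Casp12 lie next to each other, in that order, in the RefSeq annotation of the rat genome. Promoters of Casp1 and Casp12 (RefSeq, build GRCr8) are shown because both carry, in capitals, the same 14 bases just upstream of the annotated start of transcription. Each line gives the 250 bases before the start, 5′ to 3′ on the plus strand, from chr8:10872580-10872829 for Casp1 and chr8:10926938-10927187 for Casp12.
Casp1: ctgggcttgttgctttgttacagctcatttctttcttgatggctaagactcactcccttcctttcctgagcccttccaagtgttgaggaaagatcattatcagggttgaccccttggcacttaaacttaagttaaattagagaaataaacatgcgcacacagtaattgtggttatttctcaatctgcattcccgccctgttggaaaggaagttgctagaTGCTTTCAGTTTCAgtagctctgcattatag
Casp12: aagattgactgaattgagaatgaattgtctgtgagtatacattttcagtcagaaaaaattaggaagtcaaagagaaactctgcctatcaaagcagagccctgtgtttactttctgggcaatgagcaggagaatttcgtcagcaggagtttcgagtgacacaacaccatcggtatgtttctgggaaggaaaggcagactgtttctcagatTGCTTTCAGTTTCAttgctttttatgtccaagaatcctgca
The capitals mark TGCTTTCAGTTTCA, the longest run of bases that these upstream stretches share on either strand. The next longest run outside it had 8 bases. The last of the 14 bases lay 18 bases before the start in Casp1 and 28 bases before it in Casp12. Searched on both strands, the run was found in 3 of 33469 RefSeq promoters (0.00896%), those of Casp1 and Casp12 and that of a gene on the opposite strand whose window overlaps the window of Casp12. Within the run TTTC stands on both sides of AG, and such spaced TTTC repeats form the core of the interferon-stimulated response element. The run was searched for after these promoters had been seen, and it is a stretch of letters and not a measured binding site.

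Caspase-1, encoded by Casp1, is the protease of the canonical inflammasome and cleaves the precursors of IL-1β and IL-18. The log2 values of Casp1 were 8.08, 8.19, 8.05 and 7.97 in MBP-EAE rats 217, 218, 219 and 241, against 5.23, 5.58, 5.43 and 5.54 in healthy rats 193, 194, 195 and 196. The lowest MBP-EAE rat was 2.39 above the highest healthy control, and the spread within either group was small beside that gap. The means were 8.07 ± 0.09 in MBP-EAE and 5.44 ± 0.16 in healthy controls (SD, n = 4 each), a 6.19-fold difference (log2 fold change 2.63, SE 0.11; limma adjusted p = 6.04e-08). It was the 92nd largest increase of the 8793 clusters.

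Casp4 encodes the rodent caspase that binds bacterial lipopolysaccharide inside cells and drives the noncanonical inflammasome. By value its change was the largest of the 6 genes. Casp4 measured 7.98, 8.31, 8.26 and 8.20 (log2) in MBP-EAE rats 217, 218, 219 and 241, against 5.34, 5.25, 5.30 and 5.38 in healthy rats 193, 194, 195 and 196. The healthy controls were within 0.13 of each other, and the lowest MBP-EAE rat was 2.60 above the highest of them. The group means were 8.19 ± 0.15 in MBP-EAE and 5.31 ± 0.06 in healthy controls (SD, n = 4 each), which is 7.32-fold (log2 fold change 2.87, SE 0.10; limma adjusted p = 2.25e-08).

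Casp12 belongs by sequence to the inflammatory caspases and has been tied in rodents to stress of the endoplasmic reticulum. It was the most variable member. In MBP-EAE rats 217, 218, 219 and 241 its log2 values were 5.48, 5.32, 5.39 and 5.00, against 4.33, 4.16, 4.75 and 3.93 in healthy rats 193, 194, 195 and 196. The healthy controls spanned 0.81, with rat 195, whose array had the narrow spread, the highest of them. MBP-EAE rats averaged 5.30 ± 0.21 and healthy controls 4.29 ± 0.34 (SD, n = 4 each), a 2.01-fold difference (log2 fold change 1.01, SE 0.18; limma adjusted p = 0.00219). Without rat 195 the log2 fold change was 1.16 (limma adjusted p = 0.000278). The part of that array's spread in the values of Casp12 was not tested.

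Because Casp1, Casp4 and Casp12 are related in sequence, probes of one could bind transcripts of another, and this was not tested. The gene on the other side of Casp1 is Gria4, a subunit of the AMPA-type glutamate receptor of neurones. It was down-regulated, at 8.46 ± 0.16 in MBP-EAE and 9.35 ± 0.17 in healthy controls (SD, n = 4 each; log2 fold change -0.88, SE 0.12; limma adjusted p = 0.000504).

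Casp8 encodes the initiator of death receptor signalling, which also holds necroptosis in check. Rats 217, 218, 219 and 241 with MBP-EAE had log2 values of 6.88, 6.94, 6.82 and 6.67 for Casp8, against 4.81, 4.74, 4.64 and 4.66 in healthy rats 193, 194, 195 and 196. Both groups were tight and lay 1.86 apart at their nearest values. Casp8 averaged 6.83 ± 0.11 in MBP-EAE and 4.71 ± 0.08 in healthy controls (SD, n = 4 each), a 4.32-fold difference (log2 fold change 2.11, SE 0.10; limma adjusted p = 1.42e-07). Its neighbour on the chromosome is Cflar, which codes for FLIP, a relative of caspase-8 that lacks protease activity and holds it back. Cflar was 2.54-fold higher, at 7.22 ± 0.08 in MBP-EAE and 5.87 ± 0.15 in healthy controls (SD, n = 4 each; log2 fold change 1.35, SE 0.10; limma adjusted p = 7.95e-06). Flacc1, on the other side of Casp8, was at 4.67 ± 0.27 in MBP-EAE and 4.66 ± 0.28 in healthy controls (SD, n = 4 each) and was not called (log2 fold change 0.01, SE 0.17; limma adjusted p = 0.967).

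Casp2 and Casp6 changed least. Their RefSeq promoters (GRCr8) are shown to set them beside those of Casp1 and Casp12. Neither holds TGCTTTCAGTTTCA on either strand, but that run was defined from Casp1 and Casp12, so its absence here tests nothing. Promoters of Casp4 and Casp8 were not available. A link between these promoters and the sizes of the changes was not tested. The lines give the 250 bases before the start, plus strand, from chr4:72116107-72116356 for Casp2 and chr2:221140136-221140385 for Casp6, with no part in capitals.
Casp2: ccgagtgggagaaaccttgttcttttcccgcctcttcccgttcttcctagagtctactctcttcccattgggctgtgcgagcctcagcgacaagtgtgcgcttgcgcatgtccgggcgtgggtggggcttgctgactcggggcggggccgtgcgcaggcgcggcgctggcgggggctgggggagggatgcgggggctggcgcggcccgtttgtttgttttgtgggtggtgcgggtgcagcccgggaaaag
Casp6: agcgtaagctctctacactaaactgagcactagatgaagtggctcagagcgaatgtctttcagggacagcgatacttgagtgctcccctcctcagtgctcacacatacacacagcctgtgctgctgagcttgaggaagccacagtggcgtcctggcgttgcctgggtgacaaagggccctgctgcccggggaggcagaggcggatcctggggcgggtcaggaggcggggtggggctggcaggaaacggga
Over 300 bases (250 before and 50 after the start), G and C made up 66.0% in Casp2 and 63.0% in Casp6, against 43.3% in Casp1 and 41.0% in Casp12, and the median of all promoters was 51.7%. The dinucleotide CG occurred 27 times in Casp2 and 16 times in Casp6, against 4 in Casp1 and 3 in Casp12. A gamma-activated site, searched as TTCNNNGAA on both strands, was found in Casp12 alone of these 4 promoters and in 8.87% of all 33469 windows of 300 bases. That match did not overlap the shared run.

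Casp2 encodes an initiator that is activated on the PIDDosome, a complex linked to p53 and to errors of cell division. Casp2 had log2 values of 5.58, 5.77, 5.60 and 5.69 in MBP-EAE rats 217, 218, 219 and 241, against 5.35, 5.28, 5.27 and 5.16 in healthy rats 193, 194, 195 and 196. The groups did not overlap, and the gap of 0.24 between them was wider than the range within either, 0.19 in each. Mean values were 5.66 ± 0.09 in MBP-EAE and 5.26 ± 0.08 in healthy controls (SD, n = 4 each), a 1.32-fold difference (log2 fold change 0.40, SE 0.09; limma adjusted p = 0.00992). Clcn1, the muscle chloride channel gene that lies next to Casp2, went the other way, at 4.24 ± 0.05 in MBP-EAE and 4.56 ± 0.12 in healthy controls (SD, n = 4 each; log2 fold change -0.31, SE 0.09; limma adjusted p = 0.0346). That call was lost without any 1 of rats 194, 195, 196, 217, 218, 219 or 241, where the limma adjusted p ran between 0.0507 and 0.105.

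Casp6 encodes an executioner caspase that cuts nuclear lamins. Its log2 values were 5.48, 5.39, 5.33 and 5.29 in MBP-EAE rats 217, 218, 219 and 241, against 5.11, 5.09, 5.09 and 5.14 in healthy rats 193, 194, 195 and 196. The 4 healthy controls were nearly equal, and all 4 MBP-EAE rats were above them. Casp6 averaged 5.37 ± 0.08 in MBP-EAE and 5.11 ± 0.03 in healthy controls (SD, n = 4 each), a 1.20-fold difference (log2 fold change 0.27, SE 0.09; limma adjusted p = 0.0456). The call was lost when any 1 of the 8 rats was left out, with log2 fold changes between 0.23 and 0.29 and limma adjusted p between 0.0536 and 0.145. A search of RefSeq by symbol found 3 pseudogenes named after Casp6 and none named after the other 5 genes. Pseudogenes under other symbols would be missed, and binding of pseudogene transcripts was not tested.

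**Figure D2:**
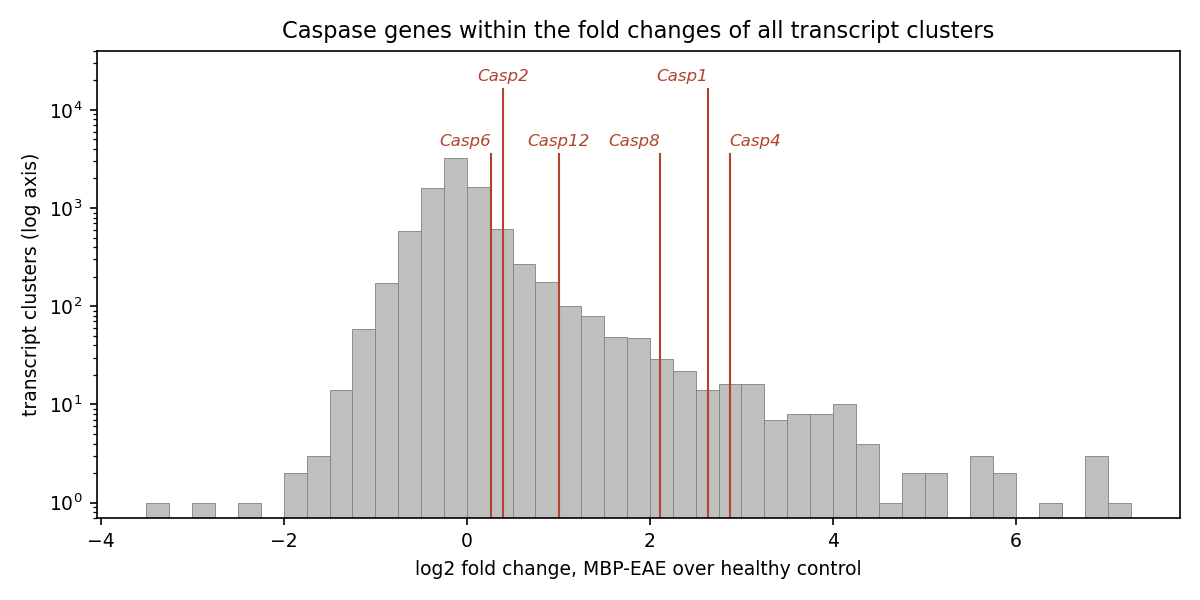
Number of transcript clusters (vertical log axis) by log2 fold change of MBP-EAE over healthy control (horizontal axis, bins of 0.25), for all 8793 clusters. Lines mark the 6 caspase genes. Casp4, Casp1 and Casp8 lie at 2.87, 2.63 and 2.11, in the thin right tail, whereas Casp2 and Casp6 lie at 0.40 and 0.27.

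The sizes of the changes were compared between the 6 genes in 15 pairs. For each pair the difference of the 2 log2 values was taken within each rat and compared between the groups by an exact two-sided permutation test, adjusted over the 15 pairs by Benjamini-Hochberg. Of the 15 pairs, 12 differed, each at an adjusted exact permutation p of 0.0357. Casp1 and Casp4 both changed more than Casp8, by 0.52 (95% interval 0.25 to 0.78) and 0.76 (0.50 to 1.02) on the log2 scale. Casp8 changed more than Casp12 by 1.11 (0.63 to 1.58), and Casp12 more than Casp6 by 0.74 (0.26 to 1.22). The change of Casp4 exceeded that of Casp12, next to it on the chromosome, by 1.87 (1.29 to 2.44). The part of each cluster's probes and intensity in these differences was not tested. For 3 pairs the test did not pass. Casp4 minus Casp1 was 0.24 (-0.05 to 0.53; adjusted exact permutation p = 0.0612), Casp12 minus Casp2 was 0.61 (0.11 to 1.11; adjusted exact permutation p = 0.0612) and Casp2 minus Casp6 was 0.13 (-0.07 to 0.34; adjusted exact permutation p = 0.171). Casp12 and Casp2 did differ after cyclic loess, after a further quantile normalization and after scaling by the median absolute deviation (adjusted exact permutation p = 0.0330 in each). Casp12 and Casp6 no longer differed without any 1 of the MBP-EAE rats 217, 218, 219 or 241 (0.69 to 0.81; adjusted exact permutation p 0.0612 to 0.0714).

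**Figure D3:**
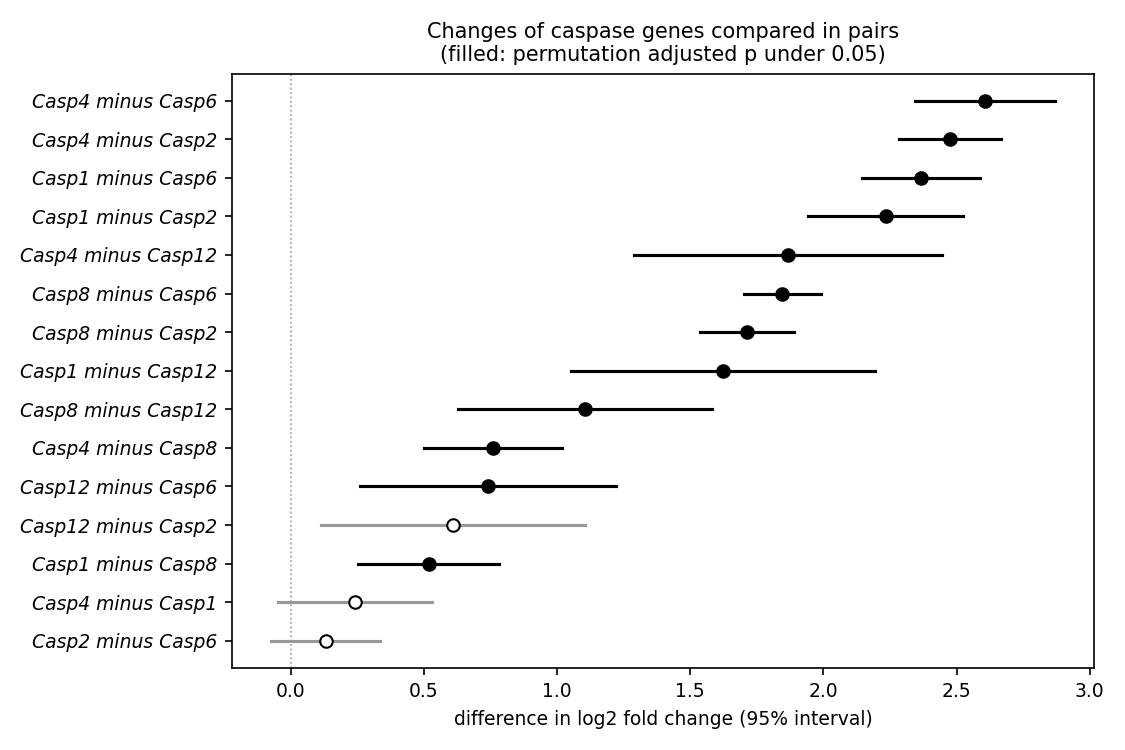
Difference between the log2 fold changes of 2 caspase genes (horizontal axis) for the 15 pairs, first gene minus second, with 95% intervals. Filled points passed the adjusted exact permutation test and open points did not. Casp4 minus Casp6 lies furthest right, at 2.61.

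Within the MBP-EAE group, rat 218 had the highest value of 4 of the 6 genes (Casp1, Casp4, Casp8 and Casp2), and rat 241 the lowest of 4 (Casp1, Casp12, Casp8 and Casp6). Rat 217 was highest for Casp12 and Casp6 and lowest for Casp4 and Casp2. No rat of the healthy group was highest or lowest for more than 2 genes.

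The genes whose values over the 8 arrays most resembled each member were found by the root mean square (RMS) difference between deviations from each gene's own mean, over genes with 1 symbol. This measure follows the difference between the groups closely. For Casp1 they were Tlr2, a receptor for bacterial lipoproteins (RMS 0.109), Il1a, which codes for IL-1α (0.121), and Rac2, a GTPase of blood cells (0.129). For Casp4 they were Cp, the copper-binding ceruloplasmin (0.119), Il1a (0.127) and Psmb9, a subunit of the immunoproteasome (0.142). For Casp8 they were Inpp5d, a phosphatase of blood cells (0.104), Tap1, which carries peptides to MHC class I (0.104), and the nucleotide receptor gene P2ry6 (0.125). These 8 genes were all called higher, with log2 fold changes between 1.99 (P2ry6) and 2.99 (Psmb9).

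Casp12 was most like Cd244l1 (RMS 0.131), the stress gene Nupr1 (0.148) and the adaptor gene Lat2 (0.181), whose log2 fold changes were 0.99, 1.10 and 0.92. Casp2 was most like Cct5, a subunit of a chaperonin (RMS 0.0515), the receptor gene Notch2 (0.0531) and Ddx19a, an RNA helicase (0.0566). Their log2 fold changes were 0.40, 0.40 and 0.34. After scaling by the median absolute deviation Cct5 was at -0.06 and not called (limma adjusted p = 0.863), and the call for Ddx19a was lost without rat 194, 196 or 217 (limma adjusted p 0.0513 to 0.0564). Casp6 was most like Fbxl6 (RMS 0.0451), Secisbp2, which takes part in making selenoproteins (0.0514), and the lysosomal gene Cln3 (0.0517). Of these, Cln3 was called higher (log2 fold change 0.34; limma adjusted p = 0.0137; 0.0541 without rat 217), and Fbxl6 (0.24; limma adjusted p = 0.0520) and Secisbp2 (0.23; limma adjusted p = 0.0941) were not. Both were called after cyclic loess (limma adjusted p = 0.00740 for Fbxl6 and 0.0230 for Secisbp2).

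One further caspase gene of the list had a cluster with 1 symbol. Casp9 encodes the initiator of the mitochondrial pathway, and averaged 4.08 ± 0.08 in MBP-EAE and 4.13 ± 0.23 in healthy controls (SD, n = 4 each). It was not called (log2 fold change -0.05, SE 0.12; limma adjusted p = 0.806). Both means lay near the lower quartiles of the arrays (3.87 to 4.28), and whether a change could be missed at this level was not tested. The other executioner caspases were not analysed here.

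Genes that work with the caspases were then counted by role, in lists chosen by function with earlier results of these data known. The caspase members themselves were left out of these counts. Bid was counted both with the mitochondrial arm and with the substrates, and Cflar both with the death receptors and with the inhibitors. For comparison, 25.9% of all clusters were called in either direction, 11.3% higher and 14.6% lower, and the median log2 fold change of all clusters was -0.10.

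Of 12 measured genes for inflammasome sensors, adaptors and products, 9 were up-regulated, 0 were down-regulated by limma (0 also at an unadjusted p under 0.05) and 3 were not called (median log2 fold change 1.23). The 9 include Il1a and the cytokine blockers Il1rn and Il18bp. Of the sensors, Mefv was called higher (log2 fold change 1.20; limma adjusted p = 0.000227) and Nlrp6 was not called (-0.09; 0.613). Panx1 (-0.20; limma adjusted p = 0.302) and Ninj1 (0.006; 0.972) were not called either. Il1a, for IL-1α, was 7.17-fold higher, at 6.88 ± 0.06 in MBP-EAE and 4.04 ± 0.13 in healthy controls (SD, n = 4 each; log2 fold change 2.84, SE 0.10; limma adjusted p = 2.13e-08). The substrates of caspase-1 both increased. Il1b was 4.66-fold higher, at 6.51 ± 0.27 in MBP-EAE and 4.29 ± 0.34 in healthy controls (SD, n = 4 each, limma adjusted p = 1.54e-05), and Il18 was 1.94-fold higher, at 7.85 ± 0.09 in MBP-EAE and 6.89 ± 0.14 in healthy controls (SD, n = 4 each, limma adjusted p = 8.35e-05). Genes whose products block these cytokines increased too, Il1rn, the IL-1 receptor antagonist, by 6.93-fold (limma adjusted p = 1.54e-05) and Il18bp, which binds IL-18, by 1.58 on the log2 scale (limma adjusted p = 7.54e-06). Pycard, for ASC, the adaptor that joins sensors to caspase-1, was 2.38-fold higher (limma adjusted p = 0.000381). The sensors Nlrp3, Nlrc4 and Aim2 and the pore protein gene Gsdmd were not analysed here.

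In the list of death receptors and their complex, 6 of 13 genes were up-regulated, 1 was down-regulated and 6 were not called (median log2 fold change 0.35). Fas, a death receptor, was 2.49-fold higher, at 6.06 ± 0.10 in MBP-EAE and 4.75 ± 0.17 in healthy controls (SD, n = 4 each, limma adjusted p = 1.47e-05). Tnfsf10, for the death ligand TRAIL, was 3.45-fold higher (limma adjusted p = 0.00198), and Ripk3, the kinase of necroptosis, was 2.64-fold higher (limma adjusted p = 8.57e-05). Fadd, for the adaptor that brings caspase-8 to the receptor, was at 3.99 ± 0.12 in MBP-EAE and 3.71 ± 0.33 in healthy controls (SD, n = 4 each) and was not called (log2 fold change 0.28; limma adjusted p = 0.232). These means, too, lay near or below the lower quartiles of the arrays. Fadd was called without healthy rat 195, at 4.10 the highest control (limma adjusted p = 0.0427), and with all 8 rats after cyclic loess, a further quantile normalization or scaling by the median absolute deviation (0.0243 to 0.0337). Faf1, for a Fas-associated factor, was the gene that fell (log2 fold change -0.41; limma adjusted p = 0.0122), and lost its call after cyclic loess (0.0961). Under cyclic loess the list held 10 higher and 0 lower calls.

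Among 22 measured genes of the mitochondrial arm of apoptosis, 4 were up-regulated, 2 were down-regulated and 16 were not called (median log2 fold change -0.05). Bcl2a1, a survival gene of blood cells in the BCL2 family, was 12.4-fold higher, at 9.14 ± 0.13 in MBP-EAE and 5.51 ± 0.40 in healthy controls (SD, n = 4 each; log2 fold change 3.63, SE 0.18; limma adjusted p = 2.99e-07). Apaf1, the scaffold of the apoptosome, was 2.22-fold higher (limma adjusted p = 1.48e-05), and Bak1, a pore former of the outer mitochondrial membrane, was 1.74-fold higher (limma adjusted p = 9.66e-05). Bid, which caspase-8 cuts to link death receptors to mitochondria, was 1.38-fold higher (limma adjusted p = 0.0472), a call lost without any 1 of rats 193, 194, 195, 196, 217, 218 or 241 (0.0671 to 0.131). The genes that fell were Aifm1, for apoptosis-inducing factor (log2 fold change -0.38; limma adjusted p = 0.0130), and the channel gene Vdac3 (-0.35; limma adjusted p = 0.0366; 0.0579 to 0.100 without any 1 of rats 193, 194, 196, 217, 218 or 219). Cycs, for cytochrome c, measured 7.58, 5.68, 7.70 and 7.49 in MBP-EAE rats 217, 218, 219 and 241, against 7.83, 8.57, 7.98 and 8.90 in healthy rats 193, 194, 195 and 196, and was not called (log2 fold change -1.21, SE 0.43; limma adjusted p = 0.0652). MBP-EAE rat 218 stood far below the rest.

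Of 5 measured inhibitors of caspases and of granzymes, 3 were up-regulated and 1 was down-regulated (median log2 fold change 0.93). Besides Cflar, described with Casp8, these were Birc3, for the ubiquitin ligase cIAP2, at 3.81-fold (limma adjusted p = 3.60e-05), and Serpinb9, which blocks granzyme B, at 1.91-fold (limma adjusted p = 0.00319). Xiap, the direct inhibitor of executioner caspases, was lower, at 6.29 ± 0.09 in MBP-EAE and 6.74 ± 0.30 in healthy controls (SD, n = 4 each; log2 fold change -0.44; limma adjusted p = 0.0491). That call was lost without any 1 of rats 194, 195, 196, 217, 218, 219 or 241 (0.0563 to 0.133).

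The list for caspase-2, p53 and the PIDDosome had 7 measured genes, all of them p53 target or checkpoint genes. Of these, 3 were up-regulated and 4 were not called (median log2 fold change 0.20). The PIDDosome genes Pidd1 and Cradd were not analysed here. Tp53inp1, a p53 target, was 1.86-fold higher (limma adjusted p = 0.00678). Cdkn1a, for the cell cycle inhibitor p21, was 1.73-fold higher (limma adjusted p = 0.0281; 0.0505 to 0.0697 without rat 194, 195, 217 or 241). Chek2, a DNA damage kinase, was 1.35-fold higher (limma adjusted p = 0.0271; 0.0529 to 0.0796 without rat 194, 196, 217, 218 or 241). Without rat 194, 217 or 241, 1 of the 7 genes was called.

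Of 21 genes for stress of the endoplasmic reticulum, the pathway linked to caspase-12 in rodents, 5 were up-regulated, 2 were down-regulated and 14 were not called (median log2 fold change 0.24). Calr, for the chaperone calreticulin, was higher by 1.07 on the log2 scale (limma adjusted p = 0.00170), Xbp1, a transcription factor of secretory cells, 1.94-fold (limma adjusted p = 0.000662) and Atf3 1.54-fold (limma adjusted p = 0.00691). Ddit3, for the pro-apoptotic factor CHOP, was lower, at 5.12 ± 0.14 in MBP-EAE and 5.52 ± 0.18 in healthy controls (SD, n = 4 each; log2 fold change -0.40; limma adjusted p = 0.0332; 0.0609 to 0.0894 without rat 196, 218, 219 or 241). The chaperone gene Dnajb9 was also lower (log2 fold change -0.51; limma adjusted p = 0.00557). Hspa5, for the chaperone BiP, was at 10.44 ± 0.25 in MBP-EAE and 10.05 ± 0.13 in healthy controls (SD, n = 4 each) and was not called (limma adjusted p = 0.0567; 0.0388 without rat 218, 0.00932 after cyclic loess and 0.0275 after a further quantile normalization), and its log2 fold change was -0.13 after scaling by the median absolute deviation (0.715). With array weights 10 genes of this list were called higher, and 12 after cyclic loess.

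Of 17 measured substrates of caspases, 5 were up-regulated, 3 were down-regulated and 9 were not called (median log2 fold change 0.05). Among the up-regulated was Bid, described with the mitochondrial arm. Prkcd, a protein kinase, was 4.11-fold higher (limma adjusted p = 2.84e-06), the intermediate filament gene Vim 3.55-fold (limma adjusted p = 1.54e-05) and Parp1, for a DNA repair enzyme, 1.56-fold (limma adjusted p = 0.000714). Pak2, a kinase, was 1.50-fold higher (limma adjusted p = 0.00271), but was not called after scaling by the median absolute deviation (0.0936). Dffb, for the nuclease that cuts DNA in apoptosis (log2 fold change -0.46; limma adjusted p = 0.00956), the nuclear import gene Kpna1 (-0.45; limma adjusted p = 0.0114) and Sptan1, for spectrin (-0.33; limma adjusted p = 0.0336), were down-regulated. The call for Sptan1 was lost without any 1 of rats 193, 194, 196, 217, 218, 219 or 241 (0.0539 to 0.0978). Lmna, the lamin gene whose product caspase-6 cuts, was at 4.84 ± 0.06 in MBP-EAE and 4.94 ± 0.15 in healthy controls (SD, n = 4 each) and was not called (limma adjusted p = 0.520).

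All 10 measured genes for interferon factors and interferon-induced GTPases were up-regulated (median log2 fold change 2.12). The smallest of these changes was that of Jak1, a kinase of cytokine receptors, at 9.66 ± 0.05 in MBP-EAE and 9.36 ± 0.05 in healthy controls (SD, n = 4 each; log2 fold change 0.30; limma adjusted p = 0.0247). Jak1 lost its call without rat 194, 217, 218 or 241 (0.0643 to 0.0747) and after median centring (0.0508), and its log2 fold change was -0.16 after scaling by the median absolute deviation (0.615). Of these GTPases, guanylate-binding proteins such as that of Gbp2 act with caspase-1 and caspase-4 against bacteria in cells. Ifi47, an interferon-induced GTPase, was 50.8-fold higher, at 10.56 ± 0.15 in MBP-EAE and 4.90 ± 0.38 in healthy controls (SD, n = 4 each; log2 fold change 5.67, SE 0.18; limma adjusted p = 1.63e-08). Gbp2, a guanylate-binding protein gene, was 17.3-fold (limma adjusted p = 2.25e-08), Irgm 14.2-fold (limma adjusted p = 1.96e-08) and Irf1, a transcription factor induced by interferon, 8.28-fold higher (limma adjusted p = 2.13e-08).

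**Figure D4:**
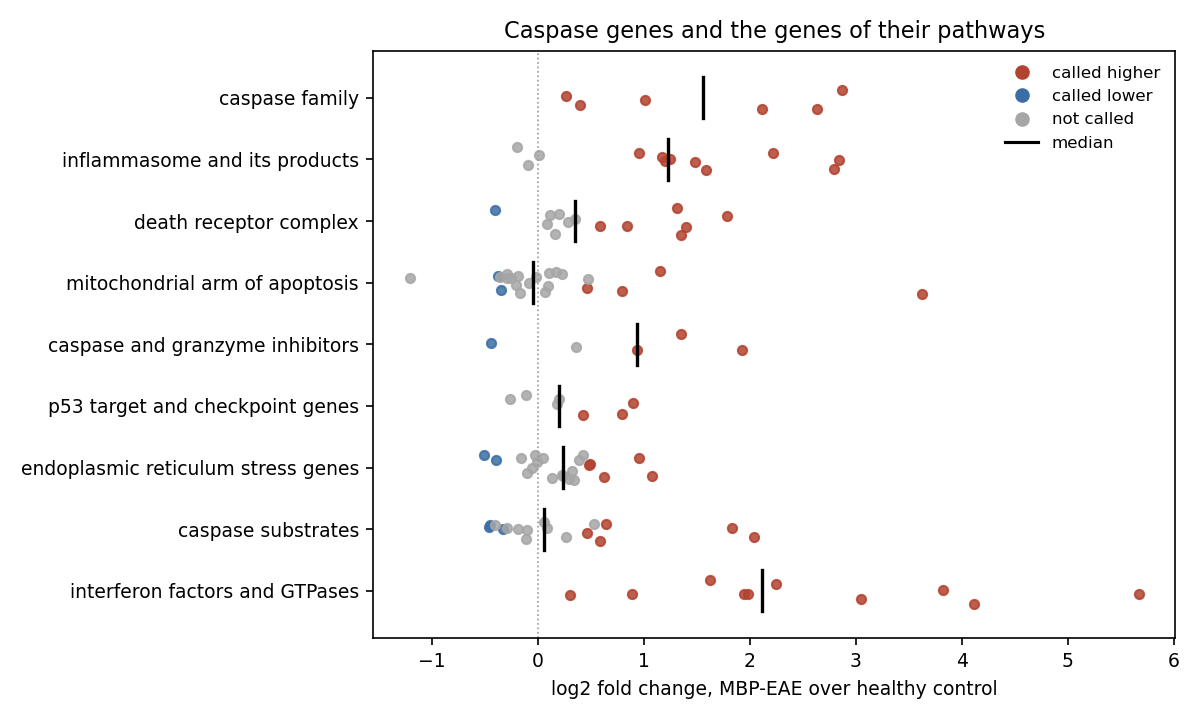
Log2 fold change of MBP-EAE over healthy control (horizontal axis) for the 6 caspase genes and for the measured genes of 8 lists, 1 point a gene, coloured by the call, with a line at each list's median. The caspase median was 1.56, the list of interferon factors and GTPases had the highest median (2.12), and the mitochondrial arm of apoptosis and the caspase substrates were near 0.

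Markers of several immune cell types were up-regulated in MBP-EAE as well. Which cells carried these transcripts was not tested. All 6 measured markers of monocytes and macrophages were up-regulated, and the log2 of their summed intensities was between 12.46 and 12.77 in MBP-EAE and between 8.23 and 8.74 in healthy controls. Ptprc, for the leukocyte antigen CD45 and so not particular to monocytes and macrophages, was 17.1-fold higher (limma adjusted p = 3.47e-09). Whether the markers of any list were particular to 1 cell type was not tested. All 5 T cell markers were up-regulated, with summed values between 9.06 and 9.36 in MBP-EAE and between 6.38 and 6.79 in healthy controls. Cd4, at 8.50 in MBP-EAE and 4.94 in healthy controls, made up the largest part of these sums. The study's paper cites CD4 on microglia in this model, so Cd4 is not particular to T cells. The 3 microglial markers were also called higher (10.60 to 10.81 in MBP-EAE and 8.95 to 9.25 in healthy controls), among them P2ry12 at 2.24-fold (limma adjusted p = 4.04e-05), but Selplg lost its call without any 1 of rats 194, 195, 196, 217, 219 or 241 (0.0538 to 0.105). Cd79b, the B cell marker measured, was 1.25-fold higher (limma adjusted p = 0.0357; 0.0626 to 0.102 without any 1 of rats 193, 194, 196, 217, 218, 219 or 241). For the neutrophil list, limma called 0 of 4 markers (1, Cxcr2, was lower at an unadjusted p under 0.05), with values between 3.22 and 4.23 in MBP-EAE and between 3.25 and 4.42 in healthy controls. Such values are near or below the lower quartiles of the arrays, and whether a change could be missed there was not tested. The part of cell numbers in the changes of the caspase genes was not tested.

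Most neuronal and oligodendrocyte markers went the other way. The summed values of 8 neuronal markers were between 13.22 and 13.44 in MBP-EAE and between 13.68 and 13.88 in healthy controls, and 6 of the 8 were down-regulated. The 9 oligodendrocyte markers summed to between 12.87 and 13.14 in MBP-EAE and to between 13.47 and 13.79 in healthy controls, with 6 down-regulated. Astrocyte markers were mixed, with summed values that overlapped between the groups, between 12.46 and 12.92 in MBP-EAE and between 12.24 and 13.00 in healthy controls. Of 6 astrocyte markers 3 were up-regulated, among them Slc1a3, a glutamate transporter gene (2.22-fold; limma adjusted p = 0.00142), and limma called 0 lower (2 at an unadjusted p under 0.05, Slc1a2, with a log2 fold change of -0.51, and S100b, with -0.38). After scaling by the median absolute deviation 1 astrocyte marker, Slc1a3, was called higher and 3 lower, and with array weights 3 were called higher and 2 lower.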

How the data were processed

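RNA of 8 whole spinal cords was hybridised to Affymetrix Rat Exon 1.0 ST arrays, 1 per rat. Per the study's methods, the authors corrected background by RMA with a GC adjustment, quantile-normalized all arrays in Partek and averaged core probe sets of each gene, and they deposited log2 values. The submitters' processing notes name build rn4. Samples were grouped by their titles. A linear model with the group as its only term was fitted to the deposited values of each cluster (lmFit and eBayes of limma 3.58.1, R 4.3.3). The labels name no batch. Benjamini-Hochberg adjustment ran over 8793 clusters, with a threshold of 0.05. The fit was tested on simulated data.

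Only the 7603 clusters with a single symbol in the platform table were named. A further 409 had several symbols, and 781 were not in that table. Where a gene had several clusters, the one with the highest mean over the 8 arrays stood for it. Named were all members, the 4 called genes of each list with the largest change, called genes that went against a list's majority, genes named for their role, neighbours and the 3 most similar genes. The members and all lists were chosen with earlier results of these data known. Promoters came from RefSeq (GRCr8), which held 4 of the 6 members, Casp1, Casp12, Casp2 and Casp6. Coordinates of rn4 were not used. Alternatives were other variance models, array weights, a filter on dim clusters, 4 other scalings, clusters with 1 symbol alone, another rule for genes with several clusters and leaving out each rat. Rats were separate animals. The number of arrays limits the precision.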

Additional observations from a re-analysis of the deposited data

Results flagged for a closer look

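None of the 6 caspase genes had a rat that stood apart from its group in either group. Among 352 groups of 4 rats examined, over the 6 caspase genes, all measured genes of the lists, the neighbours and the most similar genes, 14 held a rat whose gap to the nearest other rat exceeded the 95% critical value of Dixon's test, and chance alone flags about 1 in 20 groups. In MBP-EAE, rat 218 had 5.68 for Cycs, for cytochrome c, against 7.49 to 7.70 in the other 3 rats, and 6.25 for Cd3d, a T cell marker, against 5.54 to 5.61. The same rat had 4.19 for Casp9, against 4.03 to 4.05, 6.44 for Gadd45a, a p53 target, against 6.08 to 6.12, and 8.22 for Gria4, against 8.52 to 8.57. Rat 217 had 9.57 for Calr, against 9.21 to 9.23, and rat 241 had 5.75 for P2ry6, one of the genes most like Casp8, against 5.92 to 5.95. In healthy controls, rat 195, whose array had the narrow spread, had 5.79 for Ddit3, against 5.38 to 5.45, and 8.56 for Gfap, against 9.05 to 9.10. It also had 5.69 for Herpud1, against 5.21 to 5.25, and 6.25 for Pdia4, against 6.42 to 6.44, both genes of the list for stress of the endoplasmic reticulum. Rat 196 had 6.51 for Tp53inp1, against 6.07 to 6.13, and 12.31 for the neurofilament gene Nefm, against 12.06 to 12.09, and rat 193 had 4.501 for Fbxl6, one of the genes most like Casp6, against 4.57 to 4.58. All of these are log2 values.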

How the results depend on the processing

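Casp1, Casp4, Casp8, Casp12 and Casp2 kept their direction and stayed called under all 17 alternatives. Their log2 fold changes ran between 2.45 and 2.73 for Casp1, 2.70 and 2.97 for Casp4, 2.03 and 2.18 for Casp8, 0.89 and 1.16 for Casp12, and 0.32 and 0.46 for Casp2. Casp6 kept its direction in all 17, but was called in 6 of them. It lost its call after a further quantile normalization (log2 fold change 0.22; limma adjusted p = 0.0529), after centring each array on its median (0.23; 0.0846), after scaling by the median absolute deviation (0.21; 0.0722) and without any 1 rat (0.23 to 0.29; 0.0536 to 0.145), where fewer samples were tested. The cause of these losses, also of those without 1 rat, was not tested. Clusters called in either direction were 2274, and 3522 with array weights. Clusters called lower were 1280, and 2222 with array weights, 2030 after scaling by the median absolute deviation and 835 to 1441 when 1 rat was left out (835 without rat 196 and 850 without rat 217). Lower calls in the mitochondrial list were 2, and 1 to 7 over all alternatives. Pairs of caspase genes that differed were 12 of 15, 12 to 13 under the 4 other scalings and 11 to 12 when 1 rat was left out. Calls also lost under another scaling were those of Clcn1, Ddit3, Sptan1, Vdac3 and Xiap after cyclic loess (limma adjusted p 0.0527 to 0.161), Bid after median centring (0.0610), Cdkn1a after scaling by the median absolute deviation (0.0549) and Selplg under the last 2 and a further quantile normalization (0.0509 to 0.0526). Of other genes counted as called, Dedd, of the death receptor list, lost its call after median centring (limma adjusted p = 0.0541) and scaling by the median absolute deviation (0.062). Pdia3, of the endoplasmic reticulum list, did so under the same 2 scalings (0.0535 and 0.953). The oligodendrocyte marker Mobp did so after cyclic loess (0.123), and the neuronal marker Nefm after a further quantile normalization (0.0808). Cycs was called lower after scaling by the median absolute deviation (0.0280). No paired analysis was possible because the rat numbers of the groups are not shared.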
